A study of Mus musculus with 2 samples.

Results

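The miR-26 family was described in exosomes of CT26 cells, an established mouse colorectal carcinoma line from Balb/C mice, by small RNA sequencing. Of the 1915 mature miRNA names listed, 5 belong to the family, namely the 5p and 3p arms of miR-26a and miR-26b, and 2 of these 5 had a read. The members were selected by their names, and the value kept for each was its highest deposited reads-per-million (RPM) entry. The family was picked for description with earlier results of these data known, so its values are given as a description and without a p-value. Exosomes came from parental CT26 cells, kept in complete DMEM with exosome-depleted serum, and from CT26 sphere-derived cancer stem cells (SDCSCs). The spheres were grown for 2 weeks in serum-free DMEM/F12 with N2 supplements, 10 ng/ml EGF and 10 ng/ml bFGF. Their medium was collected for exosomes from the end of the 2 weeks onward. Each condition has 1 library, so no value has a replicate error and every interval covers counting error only. Medium and cell state changed together and cannot be told apart. The parental library held 32162 miRNA reads and the SDCSC library 3964, with a read for 328 and 124 names.

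A miRNA is cut from a hairpin precursor with 2 arms, and usually one arm is loaded into an Argonaute protein while the other is degraded. The loaded strand finds its targets through the seed, bases 2 to 8 counted from its 5′ end. The miR-26 family is widely expressed in adult tissues, is regarded in many settings as growth-restraining, and has the Polycomb methyltransferase gene Ezh2 among its known targets. Its hairpins lie in introns of the Ctdsp genes, which encode small phosphatases of the RNA polymerase II C-terminal domain.

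The mature sequences are shown because the paralogs differ so little that their assignment rests on few bases. They are RefSeq sequences for GRCm38.p6, 5′ to 3′, with the seed in capitals.
mmu-miR-26a-5p: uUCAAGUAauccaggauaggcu
mmu-miR-26b-5p: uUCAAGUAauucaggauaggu
mmu-miR-26a-1-3p: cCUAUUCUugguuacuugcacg
mmu-miR-26a-2-3p: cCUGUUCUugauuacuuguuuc
mmu-miR-26b-3p: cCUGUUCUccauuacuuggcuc

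The 5p arms share the seed, and no other RefSeq mouse miRNA in the table has it. Over the 21 positions they have in common, counted from 1 at the 5′ end of miR-26a-5p, miR-26b-5p differs by C11U and C21U, which leaves 19 identical bases. The first of these lies inside any read of at least 18 nucleotides that starts at the 5′ end. The 3p arms are less alike. The arm of Mir26a-2 differs from that of Mir26a-1 at 6 of 22 positions, among them A4G within the seed. It shares its seed with miR-26b-3p and with miR-6932-3p and miR-7039-3p, which had 0 reads in both libraries. All 5p arms begin with U and all 3p arms with C.

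The hairpins show where these arms sit, with both mature arms in capitals and the rest in lower case.
Mir26a-1: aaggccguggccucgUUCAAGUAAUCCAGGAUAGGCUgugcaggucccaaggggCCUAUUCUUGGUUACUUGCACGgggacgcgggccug
Mir26a-2: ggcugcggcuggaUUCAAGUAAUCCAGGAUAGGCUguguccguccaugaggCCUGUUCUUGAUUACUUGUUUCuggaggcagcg
Mir26b: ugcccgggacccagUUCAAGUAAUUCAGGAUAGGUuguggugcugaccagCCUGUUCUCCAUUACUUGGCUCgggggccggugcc

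Mir26a-1 (ENSMUSG00000065513.1) lies at chr9:119031796-119031885 on the plus strand, in an intron of Ctdspl, intron 5 or intron 4 depending on the transcript. Mir26a-2 (ENSMUSG00000065430.1) lies at chr10:126995530-126995613 on the plus strand, in intron 5 of Ctdsp2. Mir26b (ENSMUSG00000065468.1) lies at chr1:74394310-74394394 on the plus strand, in intron 4 of Ctdsp1. In each case the host is transcribed from the same strand and is the only other gene that the GENCODE annotation of GRCm38 places there. The 5p sequence is identical in Mir26a-1 and Mir26a-2, and miR-26a-5p was listed once for each precursor with the same value. Its reads therefore do not tell which of these genes they came from. The 3p arms would, since their sequences differ, but neither had a read.

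The family was carried almost wholly by miR-26a-5p, which outnumbered miR-26b-5p in both libraries, and none of the 3p arms was detected. In parental exosomes mmu-miR-26a-5p had 679 reads (18544 RPM), or 2.11% of miRNA reads (95% Wilson interval 1.96 to 2.27%). In SDCSC exosomes it had 53 reads (11542 RPM), or 1.34% (1.02 to 1.74%). These intervals do not overlap, and the parental share is the higher one. The share of mmu-miR-26b-5p was 0.202% in parental exosomes, from 65 reads or 1775 RPM (0.159 to 0.257%), and 0.177% in SDCSC exosomes, from 7 reads or 1524 RPM (0.0856 to 0.364%). Here the SDCSC interval holds the parental one within it. The arms mmu-miR-26a-1-3p, mmu-miR-26a-2-3p and mmu-miR-26b-3p had 0 reads in both libraries, which allows a share of up to 0.00933% in parental and 0.0757% in SDCSC exosomes, the share of 3 reads. As the mature arms are 21 or 22 nucleotides long, shares of different arms were compared without a length correction.

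**Figure D1:**
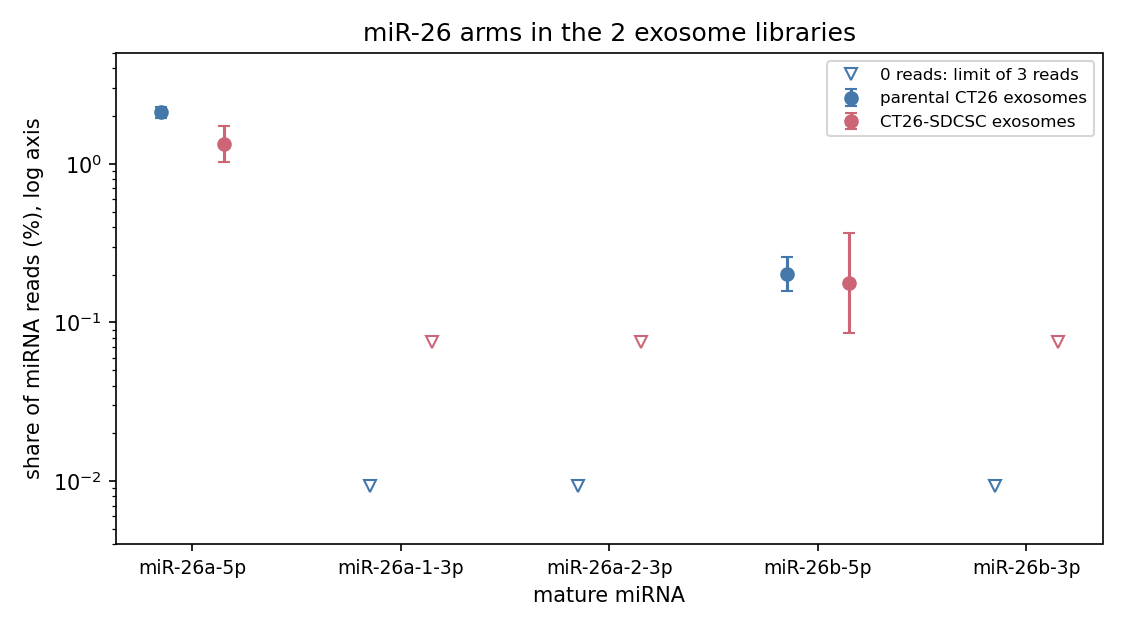
Share of miRNA reads (percent, log axis) of the 5 mature arms in parental and SDCSC exosomes, 1 library each. Points are shares with 95% Wilson intervals, and open triangles mark the share of 3 reads for arms with 0 reads. The share of miR-26a-5p is 2.11% and 1.34%, and that of miR-26b-5p 0.202% and 0.177%.

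Among the reads of both 5p paralogs, miR-26a-5p made up 91.3% in parental exosomes (679 of 744 reads, 95% Wilson interval 89.0 to 93.1%). In SDCSC exosomes it made up 88.3% (53 of 60 reads, 77.8 to 94.2%). This is 10.4 and 7.57 reads of miR-26a-5p for each read of miR-26b-5p. The odds of miR-26a-5p over miR-26b-5p in SDCSC relative to parental exosomes were 0.73 (exact 95% interval 0.31 to 1.97). With 7 SDCSC reads of miR-26b-5p, a change in the paralog mix was not detectable within this interval. The counter is not given in the sources used here, so whether reads with mismatches were shared between the paralogs could not be checked. If the entries of Mir26a-1 and Mir26a-2 are added, which counts a read of miR-26a-5p at each precursor, the share of miR-26a-5p is 95.4% and 93.8%.

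Between the libraries, the share of miR-26a-5p was 1.58-fold lower in SDCSC than in parental exosomes (exact 95% interval 1.19 to 2.13-fold). The log2 ratio of SDCSC to parental shares was -0.66 (-1.09 to -0.25). At the parental share, 83.7 reads would stand in an SDCSC library of this size, against the 53 counted. For miR-26b-5p the log2 ratio was -0.19 (-1.57 to 0.93), and 8.01 reads would stand at the parental share against the 7 counted. Its interval reaches 2.96-fold lower and 1.90-fold higher. The 2 members together had 744 parental and 60 SDCSC reads, 2.31% and 1.51% of miRNA reads, with a log2 ratio of -0.61 (-1.02 to -0.23).

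The lower share of miR-26a-5p was close to the median over the miRNAs with the most reads. Summing the reads of both libraries, 68 miRNAs reached 50 reads. This minimum is met mostly through the deeper parental library, so it favours miRNAs that are high there. Of the 68, 8 had 0 SDCSC reads. Among these 68, 55.9% were at least 1.5-fold lower in SDCSC exosomes and 14.7% at least 1.5-fold higher, an excess that this choice itself favours. Both 5p members reached that number of reads. One of them, miR-26a-5p, was past 1.5-fold and lower, none was past it and higher, and the other 3 members could not be assessed. The median log2 ratio of the 68 was -0.81, so miR-26a-5p lay 0.15 and miR-26b-5p 0.62 above it on the log2 scale. This position depended on the minimum of reads. From 20 reads, 103 miRNAs had a median of -1.50, and miR-26a-5p lay 0.84 and miR-26b-5p 1.31 above it. Over the 116 miRNAs with a read in both libraries the median was 0.06, and the members lay at -0.72 and -0.25 relative to it. This set needs a read in the shallower SDCSC library, so it favours miRNAs that are high there. A lower ratio than that of miR-26a-5p was seen for 35 of the 68 and a lower one than that of miR-26b-5p for 43. With the most abundant miRNA of each library, miR-99b-5p and miR-21a-5p, left out of the totals, miR-26a-5p was 1.43-fold lower and no member was past 1.5-fold. Without scaling to library size, which ignores the deeper parental library, 65 of the 68 were lower and 3 higher.

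**Figure D2:**
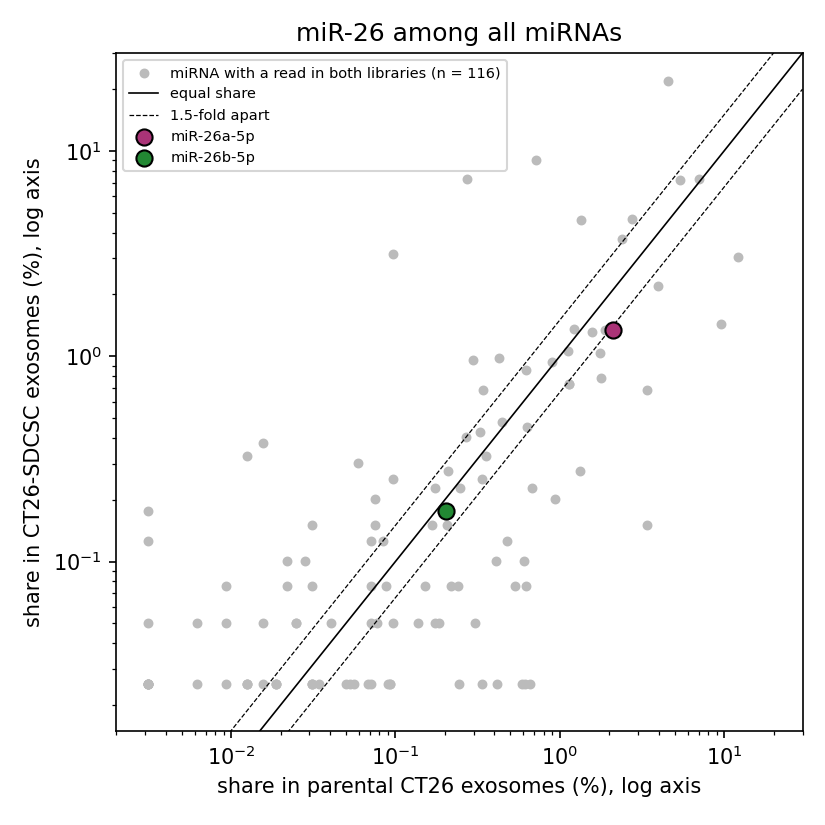
Share of miRNA reads in parental (x axis) and SDCSC exosomes (y axis), in percent on log axes, for the 116 miRNAs with a read in both libraries. The solid line marks equal shares and the dashed lines a 1.5-fold difference. The point of miR-26a-5p lies just below the lower dashed line and that of miR-26b-5p between the lines.

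By abundance, miR-26a-5p ranked 13 of the 328 miRNAs read in parental exosomes. It stood between miR-10a-5p with 774 reads and miR-27b-3p with 610 reads, and its Wilson interval overlapped those of 2 other miRNAs, so its place there is narrowly set. In SDCSC exosomes it ranked 14 of 124, tied with 1 other miRNA at 53 reads, between miR-181a-5p with 54 and miR-16-5p with 52 reads. At that depth its interval overlapped those of 13 others. The rank of miR-26b-5p was 61 in parental exosomes, between miR-103-3p with 66 reads and miR-484 with 59 reads. In SDCSC exosomes it was 45, also tied with 1 other, between miRNAs of 8 reads, miR-127-3p among them, and of 6 reads, miR-103-3p among them. Its interval overlapped those of 24 others in the parental and of 96 others in the SDCSC library, so its order there is not resolved.

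The 3p arms are set beside those of other miRNAs because the depth of the major arm limits what a missing minor arm can show. For miR-26a, 0 of 679 reads in parental exosomes allows a 3p share of up to 0.442%, and 0 of 53 in SDCSC exosomes one of up to 5.66%. For miR-26b the parental limit is 4.62%, from 0 of 65 reads, and 7 SDCSC reads set no useful limit. For the comparison, arms were paired by name and numbered copies of an arm were summed. Apart from miR-26, 41 miRNAs with both arms listed had at least 100 parental reads of the major arm. The minor arm of these had a median of 1.01% of the reads of both arms and was at 0 reads in 12 of the 41. Among the 11 with at least as many major-arm reads as miR-26a-5p it was at 0 in 6, namely miR-10a, miR-143, miR-191, miR-22, miR-486a and miR-486b. The last of these are near-equal, with 856 reads for miR-486a-5p against 853 for miR-486b-5p, and may be the same reads listed under both names. The largest minor-arm share among the 41, 39.3%, was that of let-7d.

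**Figure D3:**
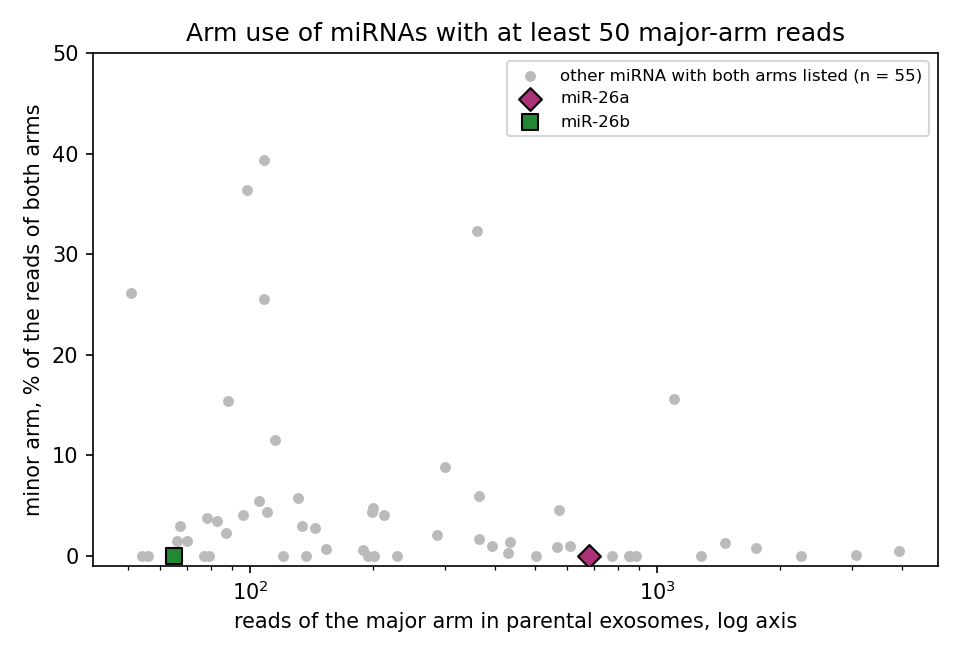
Minor arm as percent of the reads of both arms (y axis) against the reads of the major arm (x axis, log) in parental exosomes, for miRNAs with both arms listed and at least 50 major-arm reads. Grey points are 55 other miRNAs, of which 16 lie at 0, and the coloured points of miR-26a and miR-26b also lie at 0.

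The pattern most like that of miR-26a-5p was sought as the nearest log2 ratio among miRNAs with at least 50 reads, a likeness over 2 libraries. The 5 nearest were miR-199a-3p at -0.63, miR-199b-3p at -0.63, let-7f-5p at -0.77, miR-27b-3p at -0.50 and miR-151-5p at -0.47. The sequences of miR-199a-3p (365 and 29 reads) and miR-199b-3p (364 and 29 reads) are identical, so their reads cannot be told apart. Of these, miR-27b-3p was also near in level, with 610 parental and 53 SDCSC reads. The miR-26 seed was in none of miR-199a-3p, miR-199b-3p, let-7f-5p and miR-27b-3p.

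Set beside other families of paralogs that share a seed, miR-26 lay between them. The let-7 family, which restrains growth and marks differentiated cells, had 1816 parental and 334 SDCSC reads over 9 members and a log2 ratio of 0.58 (exact 95% interval 0.40 to 0.75). Of its SDCSC reads, 182 were of let-7a-5p. Without let-7a-5p, an alternative chosen after seeing the data, it held 4.29% and 3.83% of miRNA reads and had a log2 ratio of -0.16 (-0.41 to 0.08). The miR-30 family, with 1320 and 62 reads over 5 members, had a log2 ratio of -1.39 (-1.78 to -1.02). The miR-148 and miR-152 family had 95 and 18 reads over 3 members and a log2 ratio of 0.62 (-0.19 to 1.36). The odds of miR-26 reads against let-7 reads in SDCSC relative to parental exosomes were 0.44 (exact 95% interval 0.32 to 0.59), and 0.73 (0.53 to 1.01) with let-7a-5p left out. Against miR-30 reads they were 1.72 (1.17 to 2.52), and against the reads of miR-148 and miR-152 0.43 (0.24 to 0.80). These ratios of reads within a library do not depend on the scaling between libraries. Within let-7 the members lay on both sides of 0, with let-7a-5p at 1.76 and let-7f-5p at -0.77. In miR-30 all 5 members and in miR-26 both members with reads had log2 ratios below 0. This direction was common, as 43 of the 68 miRNAs had a lower ratio than miR-26b-5p at -0.19. The intervals of miR-26b-5p (-1.57 to 0.93), miR-30b-5p (-3.84 to 0.08) and miR-30e-5p (-1.08 to 0.71) also hold 0. The ratio of miR-30e-5p turned to 0.02 with miR-99b-5p and miR-21a-5p taken out of the totals. Without library scaling let-7 (-2.44), let-7a-5p alone (-1.26) and miR-148 with miR-152 (-2.40) also turned negative.

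**Figure D4:**
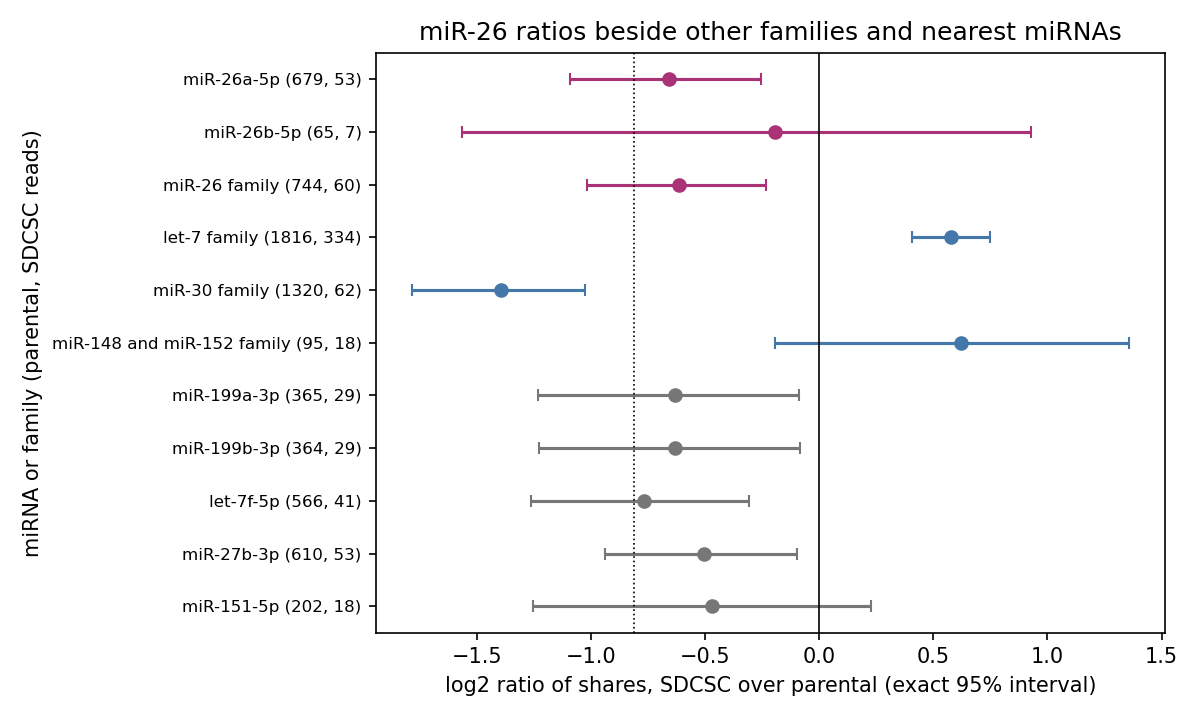
Log2 ratio of shares, SDCSC over parental exosomes, with exact 95% intervals, for miR-26 (purple), 3 other families (blue) and the 5 miRNAs nearest to miR-26a-5p (grey). Reads in each library are in brackets, the solid line marks equal shares and the dotted line the median of -0.81 over 68 miRNAs. The miR-26 family at -0.61 lies between miR-30 at -1.39 and let-7 at 0.58.

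Other miRNAs known to target Ezh2 were scarcer than miR-26a-5p. Of the 5 listed, 3 had a read, and together they held 65 parental and 3 SDCSC reads, 0.202% and 0.0757% of miRNA reads. miR-214-3p had 31 and 2 reads, miR-101b-3p 23 and 0, and miR-101a-3p 11 and 1. miR-138-5p and miR-124-3p were at 0 in both libraries. None reached 50 reads, and the log2 ratio of their sum, -1.42, has an interval from -3.73 to 0.19.

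Of a list of 15 other growth-restraining miRNAs, 12 had a read, and only 2 had the 50 reads needed for a fold call. Both were over 1.5-fold higher in SDCSC exosomes, beside 14.7% of the 68 higher and 55.9% lower, though below 0 on the log2 scale without library scaling. miR-143-3p, a smooth muscle and stromal miRNA, had 888 and 185 reads and a log2 ratio of 0.76 (exact 95% interval 0.52 to 0.99). miR-29a-3p, which targets collagen transcripts, had 137 and 39 reads and a log2 ratio of 1.21 (0.66 to 1.73). The rest were shallow. miR-145a-5p had 34 and 0 reads, with an upper limit of -0.10 for its log2 ratio. miR-34c-5p had 25 and 0, miR-195a-5p 23 and 1 and miR-29b-3p 7 and 3. At the parental share none of these 4 would exceed 4.19 SDCSC reads.

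Red cell, leukocyte and muscle markers had lower summed shares in the SDCSC library, the direction of miR-26a-5p. So did colon epithelial markers, though the interval of their log2 ratio holds 0. The share of miR-143-3p was higher in SDCSC exosomes, whereas miR-145a-5p had 34 and 0 reads and miR-214-3p 31 and 2. All 4 red cell markers (miR-451a, miR-486a-5p, miR-486b-5p and miR-144-3p) were read in parental exosomes, with a summed share of 5.60%. All were at 0 in SDCSC exosomes. With miR-486b-5p left out, since its reads cannot be told apart from those of miR-486a-5p by their counts, the parental share was 2.94%. Over all 336 miRNAs with a read, 328 were read in the parental and 124 in the shallower SDCSC library. At the parental share 105.5 SDCSC reads of miR-486a-5p would stand. For the muscle marker miR-133a-3p, with 120 parental and 0 SDCSC reads, 14.8 would stand, but 0.62 for the muscle marker miR-1a-3p. The red cell marker miR-144-3p had 3 parental reads. The 4 leukocyte markers summed to 0.743% and 0.0252%. Most of these reads were of miR-142a-5p, with 213 parental reads and 1 SDCSC read, while miR-223-3p had 12 and 0. Of the 3 muscle markers 2 were read in parental exosomes (0.389% together) and none in SDCSC exosomes. The liver marker miR-122-5p was at 0 in both. With the red cell, leukocyte, muscle and liver markers left out of the totals, an alternative chosen after seeing the data, the log2 ratio of miR-26a-5p was -0.76. Whether reads of other cells or of serum had a part in the miR-26 values was not tested. Of 9 colon epithelial markers, 3 were read in parental exosomes, led by miR-192-5p with 48 reads, and 2 in SDCSC exosomes with 1 read each. miR-200a-3p, miR-200c-3p, miR-141-3p and miR-375-3p were at 0 in both libraries.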

How the data were processed

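Exosomal small RNA with inserts of 18 to 40 nucleotides was sequenced in 1 library per condition. The authors clipped adapters, discarded reads under 18 nucleotides with Trimmomatic and deposited an RPM value for each mature miRNA at each precursor, scaled to all entries. The submitters' processing notes name mm10. The study's methods name ncPRO-seq for the exosomal RNA content, without saying whether the RPM values came from it. The counter behind these values and the miRBase release are not given in the sources used here. Reads were recovered as multiples of the smallest RPM, 27.31 and 217.77. Within 0.01 reads, 100.0% of values above 0 were whole. Entries summed to 36615 and 4592 reads, and the highest entry per name gave 32162 and 3964, the totals used here.

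The design set no test for the members, and their ratios have exact conditional 95% intervals. Across the 336 miRNAs with a read, Fisher's exact test (two-sided, Benjamini-Hochberg adjusted p under 0.05) called 17 higher and 31 lower in the SDCSC library. It sets one library against the other and says nothing of the conditions. Its trial on simulated libraries held counting error only, so it does not speak to variation between replicate libraries. Members and lists were chosen with earlier results of these data known. Names were drawn from the members, their neighbours in rank, the 5 nearest log2 ratios, the most abundant miRNAs and seed-sharing miRNAs. List members with at least 10 reads were named too, except that the let-7, miR-30 and miR-148 and miR-152 families are named only in part. Some list members with fewer than 10 reads, several of them at 0, are also named. Members singled out within lists and minor arms at 0 were chosen after their values were seen. Of the 1915 names, 1623 matched RefSeq. Versions were Python 3.11.15, scipy 1.17.1, pandas 2.3.3, numpy 2.4.6, matplotlib 3.10.9, R 4.3.3 and, for TMM factors only, edgeR 4.0.16.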

Additional observations from a re-analysis of the deposited data

How the results depend on the processing

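The log2 ratios of miR-26a-5p, miR-26b-5p and their sum stayed negative under each scaling, sum of entries and pseudocount tried. Without library scaling the family was at -3.63, with 65 miRNAs lower and 3 higher by 1.5-fold, 2 members among the lower. Totals without the most abundant miRNA of each library, or a 2-fold limit, left 0 members past the limit. With sums of entries miR-26a-5p was 95.4% of both paralogs in parental exosomes, and the family took 3.89% and 2.46% of miRNA reads, since its reads are then counted at each precursor. A minimum of 20 reads gave 63 lower and 17 higher miRNAs, against 38 and 10. A read in both libraries gave 41 lower and 44 higher, so the excess of lower miRNAs was not seen there. That set leaves out miRNAs at 0 in the shallower SDCSC library, so it favours those that are high in it. It also holds miRNAs with only 1 read in each library. The median log2 ratio moved by 0.15 without the most abundant miRNAs, by -0.10 without markers of other cell types by -3.02 without scaling, by -0.69 from 20 reads and by 0.87 with a read in both libraries. Of the 74 values recomputed, 60 stayed within counting error or 1.5 times the count, 14 moved and 0 reversed. The 60 include 3p shares and counts of members higher by the fold, which were 0 each time. Deposited RPM values and sums of entries gave the same log2 ratios for miR-26a-5p and for miR-26b-5p, so these were not separate checks. Only a log2 ratio that changed sign was labelled reversed, so counts and shares could not get that label. With a read in both libraries the balance of lower and higher miRNAs did turn. So did the side of the median on which the members lay. The 7 SDCSC reads of miR-26b-5p and the 3964 of that library limit what can be shown. No paired analysis was possible because there was 1 library per condition.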
